A study of Danio rerio with 14 samples.

Results

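The genes described here encode transcription factors of the forkhead box (Fox), Gata, Krüppel-like (Klf) and Iroquois (Irx) families in the zebrafish embryo. They were selected by symbol, as genes named fox, gata, klf or irx followed by a subfamily letter or number, and foxh1 and gata5 were left out. Of the 14077 genes listed in at least 1 of the 3 deposited tables, 46 qualified, namely 23 fox, 3 gata, 16 klf and 4 irx genes. The gene name table used here holds 100 identifiers of these families, foxh1 and gata5 left out. The selected genes were 23 of its 61 fox, 3 of 7 gata, 16 of 21 klf and 4 of 11 irx genes. Symbols were matched in lower case, so listed genes of these families with capital letters in their symbols were not selected. Without regard to case, 47 genes matched at 53 mGy/h, 0 yr, 45 at 8.7 mGy/h, 0 yr and 39 at 8.7 mGy/h, 1 yr. The table of 53 mGy/h at 0 yr held 44 of the 46 genes, that of 8.7 mGy/h at 0 yr held 42 and that of 8.7 mGy/h at 1 yr held 37, and 35 genes stood in all 3.

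Messenger RNA was sequenced from pools of 100 whole F1 embryos at 5.5 hours after fertilization (hpf), the start of gastrulation, and every group came from AB wild type parents. At 0 yr, meaning a brood collected 1 month after exposure, the groups were offspring of unexposed parents (control, 2 libraries), of parents given gamma radiation at 8.7 mGy/h during gametogenesis (3 libraries) and of parents given 53 mGy/h (3 libraries). At 1 yr, the unexposed parents and the same parents given 8.7 mGy/h were bred again, with 3 libraries each, and 53 mGy/h had no group. A further control library of the 0 yr brood was lost at RNA extraction, and the labels give neither the total dose nor the parents or clutch behind each library. The design asks whether parental exposure altered gene expression in the offspring, by dose rate and by time since exposure. The submitters call the exposed 1 yr libraries biological replicates, and for the others nothing says that they came from separate clutches, so adjusted p-values may there cover technical spread alone.

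Fox proteins bind DNA through a winged-helix domain, Gata proteins through zinc fingers that read the GATA motif, Klf proteins through zinc fingers that read GC-rich and CACCC boxes, and Irx proteins through a homeodomain of the TALE class. Before gastrulation the zebrafish embryo replaces RNA stored by the mother with RNA from its own genome, and many fox, gata and klf genes are among the patterning regulators that the embryo then switches on in germ layers, neural plate, epidermis, hatching gland and blood precursors. In the forkhead tree, subfamilies A to G, I, L and Q form clade I, many of them regional regulators of the embryo, and H, J, K and M to P form clade II, many of them widely expressed and tied to cell cycle, metabolism or stress. This division is used below to order the fox genes. It was adopted after the values had been seen.

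Every level below is the authors' group value in RPM, reads scaled to a common library total and not to transcript length, so levels are compared between groups and never between genes. The tables give 1 value per group and gene, without values per library, so no spread between libraries can be shown. A gene is called changed where the adjusted p-value (FDR) in the authors' deposited table was under 0.05, and every FDR below is taken from those tables. A log2 difference is the exposed minus the control log2 RPM. The log2 difference of the median gene was 0.12 at 53 mGy/h, 0 yr, -0.04 at 8.7 mGy/h, 0 yr and -0.09 at 8.7 mGy/h, 1 yr. Genes with an FDR over 0.9 and a mean of at least 10 RPM likewise had medians of 0.12 at 53 mGy/h and -0.09 at 1 yr. The deposited FDR thus need not be centred on equal RPM, and at 1 yr small rises may be called where equal falls are not. Geometric mean depth per group was at least 22.6 to 27.7 M reads. A level of 0.5 RPM thus stands for at least 11.3 to 13.9 reads per library, as a geometric mean. Depths of single libraries are not given by the tables.

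The tissue label was checked against markers. Mesoderm (ta, tbx16, noto), enveloping layer (krt4, cyt1, krt18), yolk syncytial layer (mxtx1, mxtx2) and germ cell markers (nanos3, ddx4, dnd1) were listed in every table, the endoderm marker sox32 likewise, and sox17 in the 1 yr table alone. Of 8 markers of later tissues, elavl3 was listed in the 0 yr tables, at 0.54 to 1.13 RPM, and the other 7 in none. Being listed does not show an equal makeup. At 53 mGy/h, 0 yr, 3 of 3 enveloping layer markers fell (705 to 162 RPM in sum), as 21.5% of all genes did. The 2 yolk syncytial layer markers fell as well (78.6 to 16.1 RPM), and 0 of 3 germ cell markers was called. At 8.7 mGy/h, 1 yr, the 3 enveloping layer markers rose (1449 to 1803 RPM), as 20.0% of all genes did. So did the 2 yolk syncytial layer markers (45.3 to 55.0 RPM) and 1 of 3 germ cell markers. Markers of early zygotic and of maternal RNA moved with the results that follow. At 53 mGy/h, 0 yr, 12 of 12 listed early zygotic markers fell (21.5% of all genes did). Their summed level was 1122 RPM in the control and 223 RPM in the exposed group. Of 10 maternal markers, 6 rose (22.1% of all genes did) and 1 fell, with sums of 999 and 2672 RPM. These sums weigh abundant markers most. At 8.7 mGy/h, 0 yr, none of these markers was called (0.294% of all genes were). The zygotic and maternal sums were 1170.0 RPM and 1012 RPM in the exposed group. At 8.7 mGy/h, 1 yr, 9 of 13 zygotic markers rose (1712 to 2036 RPM in sum), as 20.0% of all genes did. Of 10 maternal markers, 8 fell (930.0 to 537 RPM in sum), as 22.4% of all genes did. How far the stage or RNA makeup of the pools plays into the values of the fox, gata, klf and irx genes was not tested. In pools of whole embryos, fewer cells of a type and less RNA per cell cannot be told apart.

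At 53 mGy/h, 0 yr, the 3 gata genes, 6 of 8 clade I fox genes and 6 of 15 klf genes fell, and 10 of 14 clade II fox genes rose. Of the 44 listed genes, 30 were called (68.2%), against 43.6% of all genes in that table. Of these, 13 rose (22.1% of all genes did) and 17 fell (21.5% of all genes did). Differences of at least 2-fold numbered 10 up (14.5% of all genes) and 17 down (12.8% of all genes), and the median log2 difference was -0.22, against 0.12 over all genes. The fold differences were largest for foxd5, which fell 10.3-fold, klf17, which fell 7.08-fold, and foxp1a, which rose 6.17-fold.

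At 8.7 mGy/h, 0 yr, 0 of 42 listed genes was called, where 0.294% of all genes were (0.151% rose and 0.143% fell). The lowest FDR among them was 0.742, for foxp1a, in the authors' deposited table, which gives no unadjusted p-value. The log2 differences ran from -0.54 in klf7b to 0.47 in irx4b, with a median of -0.04, and none reached 2-fold, as 0.271% of all genes did upward and 0.565% downward. This does not show that the genes were unaffected at 8.7 mGy/h, since smaller differences may lie below what these libraries resolve.

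At 8.7 mGy/h, 1 yr, most called clade II fox genes fell, the called clade I fox genes and gata genes rose, and log2 differences ran from -1.10 to 0.80. Of 37 listed genes, 21 were called (56.8%), against 42.4% of all genes in that table. Rises numbered 12 (20.0% of all genes rose) and falls 9 (22.4% of all genes fell). A single gene, foxj2, reached 2-fold, by falling, where 4.84% of all genes fell and 1.06% rose by that much. The median log2 difference was 0.03, against -0.09 over all genes.

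**Figure D1:**
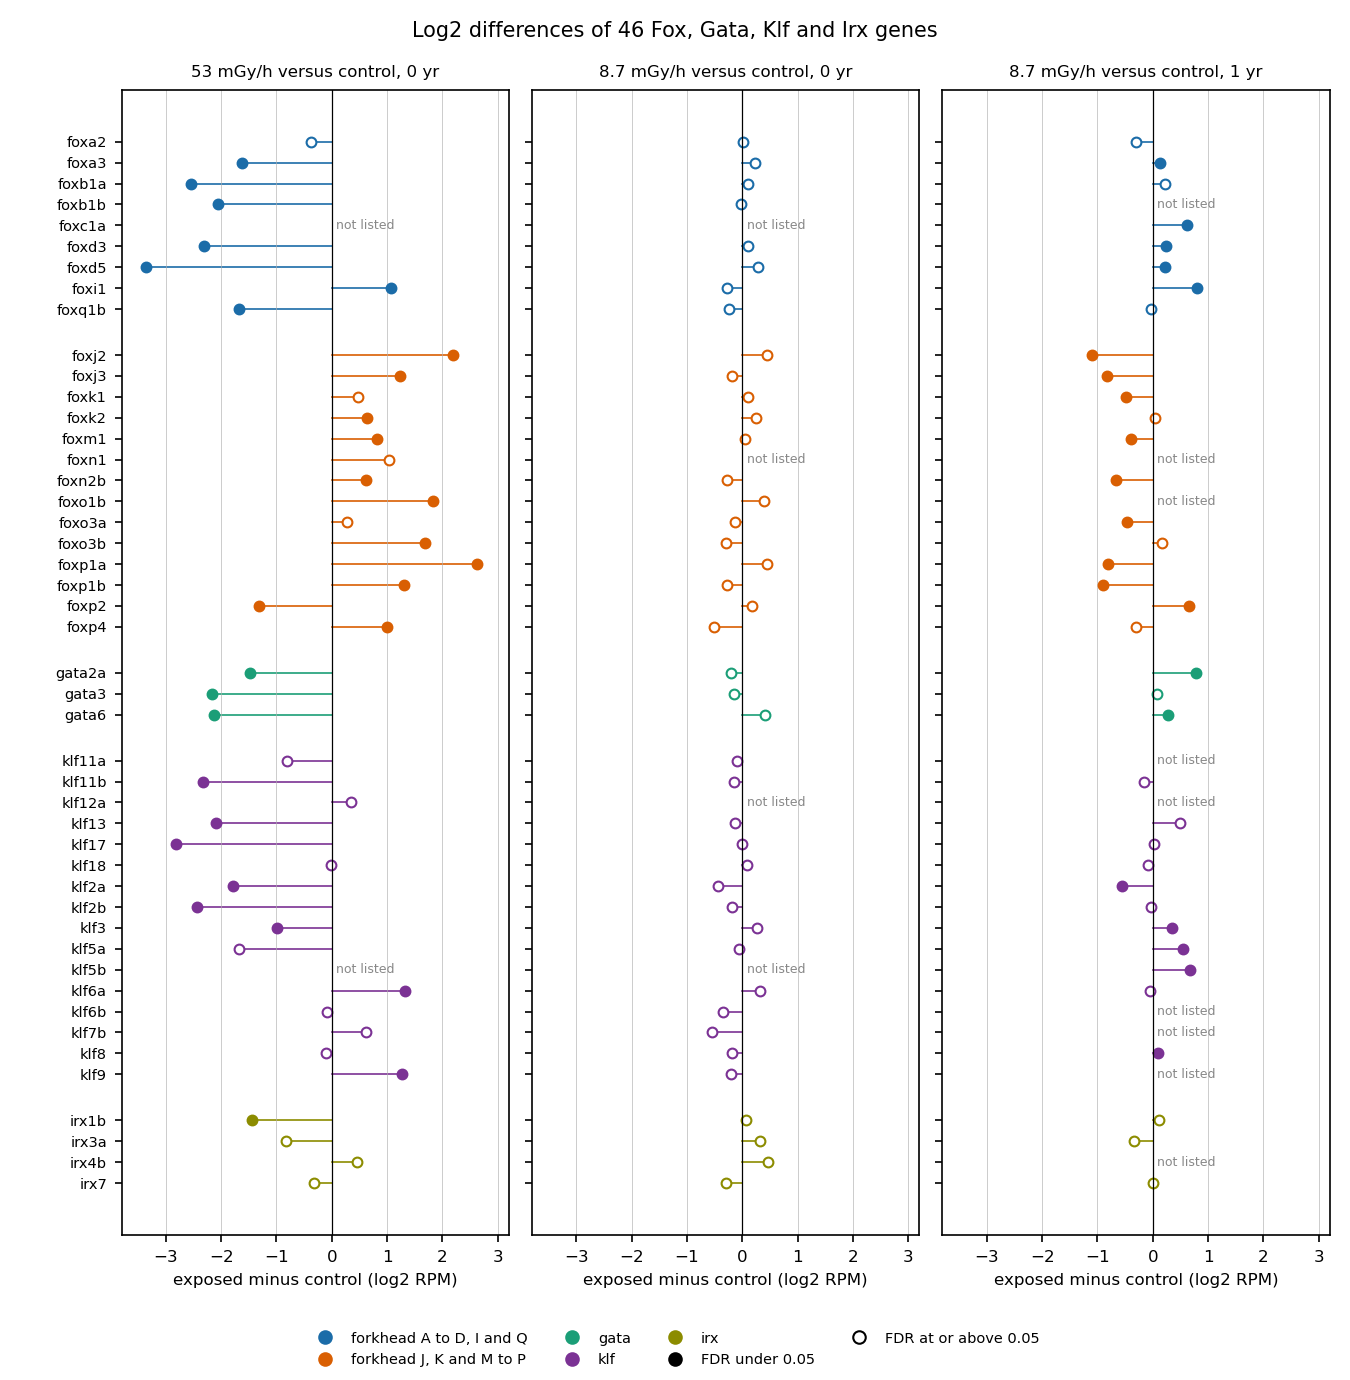
Log2 difference (exposed minus control RPM, horizontal axis) of the 46 genes in the 3 comparisons, ordered by family, with filled points for an FDR under 0.05 and open points for the rest. At 53 mGy/h, 0 yr, 6 clade I fox genes and 3 gata genes lie to the left and 10 clade II fox genes to the right with filled points. No point is filled at 8.7 mGy/h, 0 yr, and at 1 yr 8 clade II fox genes lie to the left with filled points.

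Among the clade I fox genes, 6 of the 8 listed fell at 53 mGy/h (21.5% of all genes did) and foxi1 alone rose (22.1% of all genes did). Their median log2 difference was -1.86, against 0.12 over all genes. The gene foxd5, which acts in the early neural plate, lies on chromosome 8 from 30443713 to 30444864 (GRCz10) and stood at 33.6 RPM in the 0 yr control, 40.8 RPM at 8.7 mGy/h and 3.26 RPM at 53 mGy/h. Its log2 difference at 53 mGy/h was -3.36 (deposited FDR 3.58e-23). In the 1 yr brood it stood at 70.9 RPM in the control and rose to 83.4 RPM at 8.7 mGy/h (deposited FDR 0.000371). The 53 mGy/h group thus lay far below the other 4 groups.

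The gene foxd3, needed for neural crest and active in the blastula, had the same order, at 23.1, 24.9 and 4.64 RPM in the 0 yr groups (control, 8.7 and 53 mGy/h). Its log2 difference at 53 mGy/h was -2.31 (deposited FDR 4.52e-12). At 1 yr it rose slightly, from 25.8 to 30.4 RPM (deposited FDR 0.00489). The endodermal and prechordal gene foxa3 stood at 60.7, 71.8 and 19.8 RPM at 0 yr, a log2 difference of -1.62 at 53 mGy/h (deposited FDR 4.49e-11), and at 98.6 and 108 RPM at 1 yr, where the log2 difference of 0.13 was called at a deposited FDR of 0.0173. In all 3 genes the control of the 1 yr brood lay above that of the 0 yr brood.

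Both foxb1 genes, which are active in the neural tube of vertebrates, fell at 53 mGy/h. Levels of foxb1a were 10.03, 10.7 and 1.71 RPM in the 0 yr groups, a log2 difference of -2.55 (deposited FDR 2.29e-13), and 7.94 and 9.32 RPM at 1 yr, where it was not called (deposited FDR 0.0619). Levels of foxb1b were 2.46, 2.43 and 0.59 RPM at 0 yr, a log2 difference of -2.05 (deposited FDR 1.95e-05), and it was not listed at 1 yr. A gene on the opposite strand, si:dkey-182o15.4, shares 1427 bases with foxb1b, and the libraries do not mark strand, so reads of these genes cannot be separated. The gene foxq1b fell from 2.12 to 0.67 RPM at 53 mGy/h (deposited FDR 0.00268) and stood at 1.80 RPM at 8.7 mGy/h, and at 2.23 and 2.18 RPM in the 1 yr groups.

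The gene foxi1, a regulator of the otic placode, went against the other clade I genes called at 53 mGy/h. It stood at 13.0 RPM in the 0 yr control, 10.8 RPM at 8.7 mGy/h and 27.3 RPM at 53 mGy/h, a log2 difference of 1.07 (deposited FDR 0.0113). At 1 yr it rose as well, from 6.91 to 12.1 RPM, a log2 difference of 0.80 (deposited FDR 2.7e-06). It lies on chromosome 12 from 43916243 to 43918010 (GRCz10). The organizer and endoderm gene foxa2 was called in no comparison, at 3.34, 3.38 and 2.58 RPM at 0 yr and 7.85 and 6.37 RPM at 1 yr. The paraxial mesoderm gene foxc1a was listed at 1 yr alone, where it rose from 4.59 to 7.04 RPM (deposited FDR 0.00033).

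Of 14 clade II fox genes, 10 rose at 53 mGy/h (22.1% of all genes did), foxp2 alone fell (21.5% of all genes did) and 3 were not called. Their median log2 difference was 1.02, against 0.12 over all genes. At 1 yr, 8 of the 12 listed fell (22.4% of all genes did), foxp2 alone rose (20.0% of all genes did) and 3 were not called. The median was then -0.47, against -0.09 over all genes. The subfamily P encodes repressors that bind DNA as dimers. Its member foxp1a (chromosome 23, 10703039 to 10787730, GRCz10) stood at 7.29, 9.87 and 45.02 RPM in the 0 yr groups, a log2 difference of 2.63 at 53 mGy/h (deposited FDR 8.56e-32), and fell from 14.8 to 8.48 RPM at 1 yr (deposited FDR 4.61e-05). Its duplicate foxp1b moved alike, from 3.60 to 8.95 RPM at 53 mGy/h (deposited FDR 3.52e-05) and from 2.72 to 1.47 RPM at 1 yr (deposited FDR 0.0192), with 2.97 RPM at 8.7 mGy/h, 0 yr. Both foxp1 genes were thus highest in the 53 mGy/h group.

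The other listed P genes differed from each other. Levels of foxp2, known for its part in neural circuits of mammals, were 8.54, 9.69 and 3.43 RPM at 0 yr, a log2 difference of -1.32 at 53 mGy/h (deposited FDR 8.62e-07), and it rose from 11.5 to 18.1 RPM at 1 yr (deposited FDR 8.74e-09). Levels of foxp4 were 2.62, 1.84 and 5.23 RPM at 0 yr (deposited FDR 0.0249 at 53 mGy/h) and 1.36 and 1.1 RPM at 1 yr, where it was not called. So foxp2 followed the order of most clade I genes, lowest at 53 mGy/h.

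Both listed J genes rose at 53 mGy/h and fell at 1 yr. The level of foxj2 was 1.77 RPM in the 0 yr control, 2.42 RPM at 8.7 mGy/h and 8.04 RPM at 53 mGy/h, a log2 difference of 2.19 (deposited FDR 1.14e-10), and it fell from 1.66 to 0.78 RPM at 1 yr (deposited FDR 0.0196). The level of foxj3 was 18.9, 16.8 and 44.7 RPM at 0 yr, a log2 difference of 1.24 at 53 mGy/h (deposited FDR 5.27e-08), and it fell from 11.8 to 6.65 RPM at 1 yr (deposited FDR 6.13e-05). Likewise foxn2b stood at 29.4, 24.4 and 45.1 RPM at 0 yr (deposited FDR 0.0056 at 53 mGy/h) and fell from 16.0 to 10.1 RPM at 1 yr (deposited FDR 0.000573). Each of these genes was highest at 53 mGy/h and lowest in the 1 yr group of 8.7 mGy/h. Another N gene, foxn1, the thymic epithelium factor, stood at 0.93 and 1.92 RPM in the 0 yr control and at 53 mGy/h without a call and was listed in no other table.

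The gene foxm1, an activator of mitotic genes, rose from 21.1 to 37.3 RPM at 53 mGy/h, a log2 difference of 0.82 (deposited FDR 1.02e-05), and fell from 20.7 to 15.7 RPM at 1 yr (deposited FDR 0.0222). It was at 21.8 RPM at 8.7 mGy/h, 0 yr. It shares 2131 and 973 bases with genes on the opposite strand (si:ch73-352p4.8 and si:ch73-352p4.7). Of the K genes, which repress autophagy genes in mammals, foxk1 was at 61.7, 66.0 and 85.8 RPM at 0 yr without a call and fell from 62.3 to 44.6 RPM at 1 yr (deposited FDR 6.15e-06). The annotated span of foxk2 lies wholly inside that of PTS on the same strand, so its rise from 25.7 to 39.6 RPM at 53 mGy/h (deposited FDR 0.0405) is uncertain, and it was not called at 1 yr, at 30.8 and 31.6 RPM.

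Subfamily O encodes factors that are held out of the nucleus by Akt kinases and that turn on stress and growth arrest genes. The gene foxo3b rose from 13.9 to 44.9 RPM at 53 mGy/h, a log2 difference of 1.69 (deposited FDR 0.00015), stood at 11.4 RPM at 8.7 mGy/h, and was at 8.93 and 10 RPM at 1 yr without a call. Levels of foxo1b were 1.01, 1.33 and 3.59 RPM at 0 yr, a log2 difference of 1.83 at 53 mGy/h (deposited FDR 2.83e-05), and it was not listed at 1 yr. The gene foxo3a was at 69.2, 63.2 and 83.8 RPM at 0 yr without a call and fell from 58.0 to 42.1 RPM at 1 yr (deposited FDR 6.45e-05). No foxo gene was called in both comparisons, and foxo1b could not be, as the 1 yr table does not list it.

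Of 14 genes upstream of FoxO, most of them of the PI3K and Akt branch, 11 were listed at 53 mGy/h. Of these 11, 5 rose and 2 fell, with a median log2 difference of 0.46. Among the falls was sirt1 (28.6 to 23.6 RPM, deposited FDR 0.0429), not part of that branch and named after its values were seen. Over all genes in that comparison, 22.1% rose and 21.5% fell. The PI3K antagonist gene ptenb rose from 21.4 to 54.2 RPM (deposited FDR 7.13e-12), the kinase genes akt3a from 3.37 to 10.8 RPM (deposited FDR 3.97e-06) and sgk1 from 5.20 to 14.9 RPM (deposited FDR 1.94e-06), and the PI3K subunit gene pik3ca from 4.34 to 7.41 RPM (deposited FDR 0.0219). At 8.7 mGy/h, 0 yr, 0 of 11 was called. At 1 yr, 1 of 10 rose and 2 fell, namely akt2 (72.9 to 80.2 RPM), ptenb (18.4 to 11.7 RPM) and akt3a (2.97 to 1.52 RPM). Over all genes at 1 yr, 20.0% rose and 22.4% fell. Another Akt gene, akt2, named after its values were seen, fell at 53 mGy/h from 53.4 to 34.1 RPM (deposited FDR 0.000518), so the Akt genes did not move one way, and akt3b, ptena, pdpk1a and pdpk1b were not called.

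**Figure D2:**
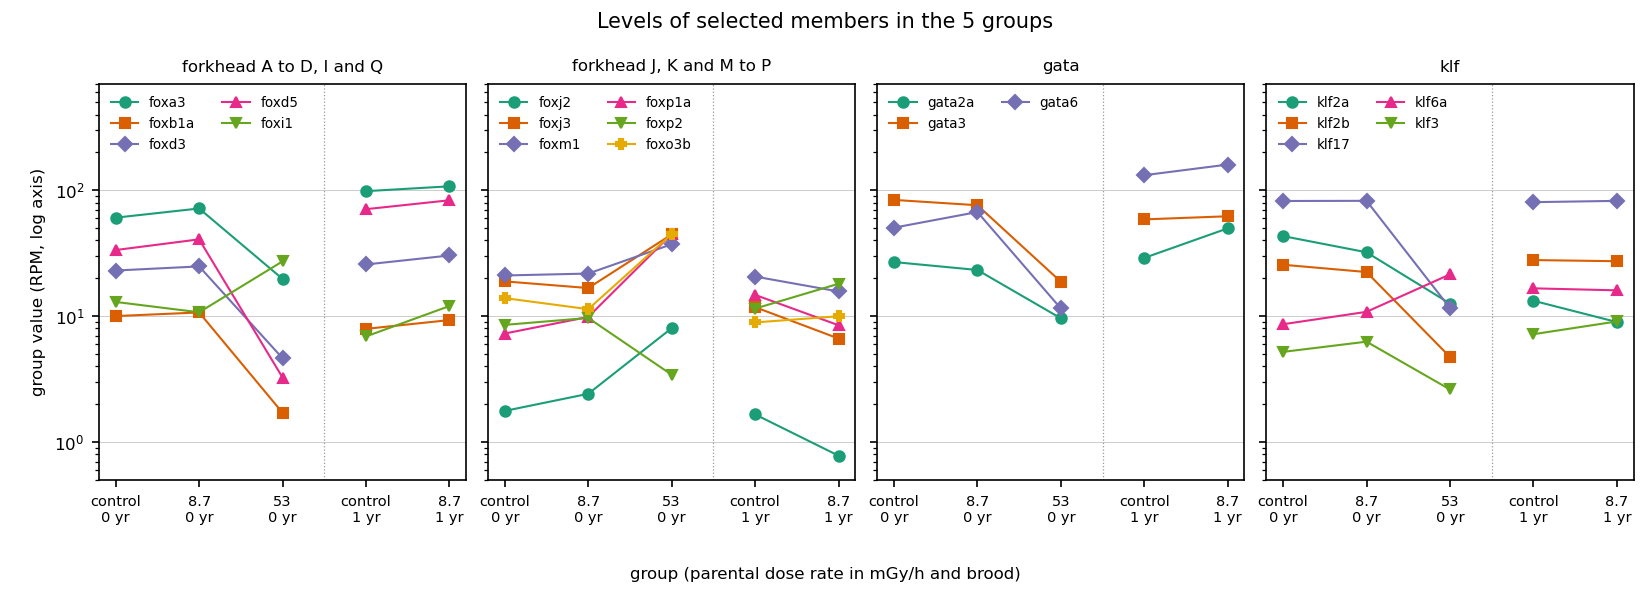
Group level (RPM, log vertical axis) of selected fox, gata and klf genes in the 5 groups (horizontal axis), with 1 point per group and no error because the tables give none; levels are to be compared along a line and not between genes. foxd5, gata3 and klf17 drop at 53 mGy/h, foxp1a and foxj3 climb there, and no gene plotted was called at 8.7 mGy/h in the 0 yr brood.

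All 3 listed gata genes fell at 53 mGy/h (21.5% of all genes did), by log2 differences of -1.48 to -2.16. At 1 yr 2 of 3 rose (20.0% of all genes did). These are too few genes for a comparison with the other families. The gene gata3, a factor of the non-neural ectoderm and inner ear, lies on chromosome 4 from 25065312 to 25075312 (GRCz10). It stood at 83.99, 76.2 and 18.8 RPM in the 0 yr groups, a log2 difference of -2.16 at 53 mGy/h (deposited FDR 2.08e-19), and was at 58.8 and 62.3 RPM at 1 yr (deposited FDR 0.0868). The gene gata2a, which acts in ventral ectoderm and blood-forming endothelium, stood at 27.0, 23.3 and 9.63 RPM at 0 yr, a log2 difference of -1.48 at 53 mGy/h (deposited FDR 1.87e-08). In the 1 yr brood gata2a rose from 29.1 to 49.9 RPM, a log2 difference of 0.78 (deposited FDR 3.63e-18).

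The endoderm and heart gene gata6 was at 50.5, 67.3 and 11.5 RPM in the 0 yr groups, a log2 difference of -2.13 at 53 mGy/h (deposited FDR 0.00397). At 1 yr it rose from 132 to 160.3 RPM (deposited FDR 4.34e-06). Its FDR at 53 mGy/h was higher than that of gata2a in spite of a larger difference. The tables give no per-library value that would show the spread behind it.

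Partners of Gata factors moved in both directions. Of 14 cofactor genes, 10 were listed at 53 mGy/h, of which 4 rose and 2 fell, with a median log2 difference of 0.25. Among all genes in that comparison, 22.1% rose and 21.5% fell. The friend-of-Gata genes zfpm1 and zfpm2a rose from 3.44 to 19.7 RPM (deposited FDR 1.3e-29) and from 1.82 to 5.23 RPM (deposited FDR 0.00118), and the E-protein gene tcf12 rose from 0.67 to 1.79 RPM (deposited FDR 0.0155). The LIM-domain-binding gene ldb1a fell from 57.5 to 22.2 RPM (deposited FDR 1.82e-11). At 1 yr, 4 of 9 rose and 1 fell, with ldb1a up from 69.1 to 90.2 RPM (deposited FDR 1.29e-09) and zfpm2a down from 2.31 to 1.21 RPM (deposited FDR 0.0215), and at 8.7 mGy/h, 0 yr, 0 of 10 was called. Among all genes at 1 yr, 20.0% rose and 22.4% fell.

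Of 15 listed klf genes, 6 fell and 2 rose at 53 mGy/h, with a median log2 difference of -0.80, and at 1 yr 4 of 11 rose and 1 fell. Calls made up 53.3% of them at 53 mGy/h and 45.5% at 1 yr, against 43.6% and 42.4% of all genes. Falls at 53 mGy/h were 40.0% (21.5% of all genes) and rises 13.3% (22.1% of all genes). The gene klf17, a factor of the hatching gland and of primitive blood in zebrafish, lies on chromosome 2 from 33343304 to 33345470 (GRCz10). It stood at 82.3, 82.6 and 11.6 RPM in the 0 yr groups, a log2 difference of -2.82 at 53 mGy/h (deposited FDR 4.12e-20), and at 80.6 and 82.5 RPM at 1 yr. Apart from the 53 mGy/h group, its level lay between 80.6 and 82.6 RPM in the 4 other groups.

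The klf2 genes, of which klf2a responds to blood flow in later endothelium, both fell at 53 mGy/h. Levels of klf2a were 43.3, 32.2 and 12.6 RPM at 0 yr, a log2 difference of -1.78 at 53 mGy/h (deposited FDR 7.9e-12), and it fell also at 1 yr, from 13.3 to 8.99 RPM (deposited FDR 0.00804). Levels of klf2b were 25.7, 22.5 and 4.75 RPM at 0 yr, a log2 difference of -2.43 at 53 mGy/h (deposited FDR 1.24e-22), and 27.95 and 27.4 RPM at 1 yr without a call. The control level of klf2a thus lay lower in the 1 yr brood by a log2 difference of -1.71, about as much as the difference at 53 mGy/h, and that of klf2b did not (0.12).

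Further falls at 53 mGy/h were those of klf11b, from 5.92 to 1.19 RPM (deposited FDR 6.67e-12), klf13, from 2.05 to 0.48 RPM (deposited FDR 0.000152), and klf3, a repressor that recruits CtBP, from 5.21 to 2.62 RPM (deposited FDR 0.0047). Their levels at 8.7 mGy/h, 0 yr were 5.33, 1.88 and 6.28 RPM. At 1 yr klf3 rose from 7.20 to 9.09 RPM (deposited FDR 0.0124), and klf11b (4.78 and 4.28 RPM) and klf13 (1.34 and 1.88 RPM) were not called. The annotated span of klf3 shares 56970 bases with mtnr1aa and 16322 bases with fam114a1 on the same strand, which makes its value uncertain.

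The klf genes that rose at 53 mGy/h were klf6a and klf9. The gene klf6a, needed for outgrowth of the zebrafish liver, stood at 8.64, 10.8 and 21.5 RPM in the 0 yr groups, a log2 difference of 1.32 (deposited FDR 2.05e-09), and at 16.7 and 16.1 RPM at 1 yr. The gene klf9, a target of glucocorticoid and thyroid hormone receptors, stood at 2.64, 2.30 and 6.35 RPM, a log2 difference of 1.27 (deposited FDR 0.000335), and was not listed at 1 yr. The klf5 genes, which act in proliferating epithelia, were called at 1 yr, where klf5a rose from 3.67 to 5.34 RPM (deposited FDR 0.00578) and klf5b from 2.47 to 3.91 RPM (deposited FDR 0.00433). At 0 yr klf5a was at 1.09, 1.05 and 0.34 RPM without a call (deposited FDR 0.0588 at 53 mGy/h) and klf5b was not listed.

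The remaining klf genes differed little or were low. The gene klf8 was at 36.5 to 41.7 RPM in all 5 groups and was called at 1 yr with a log2 difference of 0.10 (deposited FDR 0.0483). The gene named klf18 in the tables, klf5l in the name table, was at 4.49 to 4.80 RPM at 0 yr and 9.15 and 8.67 RPM at 1 yr, and klf6b was at 1.92 to 2.45 RPM at 0 yr. No comparison called klf18 or klf6b, and klf7b, klf11a and klf12a, all under 2 RPM, were not called either.

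The Sp factors share their zinc finger type with the Klf factors, and 9 of 13 were listed at 0 yr. Of these, 4 fell and 2 rose at 53 mGy/h, with a median log2 difference of -0.26, where 21.5% of all genes fell and 22.1% rose. The Wnt target genes sp5l and sp5a fell from 1.66 to 0.14 RPM (deposited FDR 0.0012) and from 5.67 to 0.65 RPM (deposited FDR 6.24e-11). The 0.14 RPM of sp5l stands for few reads per library. Likewise sp8b fell from 2.18 to 0.85 RPM (deposited FDR 0.00405), and sp2 rose from 8.36 to 19.7 RPM (deposited FDR 6.08e-08). At 8.7 mGy/h, 0 yr, 0 of 9 was called, and sp5l stood at 3.33 RPM. At 1 yr, sp5a (10.8 to 17.7 RPM, deposited FDR 7.83e-09) and sp5l (61.3 to 81.6 RPM, deposited FDR 6.73e-08) were the 2 called of 8, and both rose. That share of calls was smaller than the 42.4% over all genes. The control level of sp5l was 1.66 RPM at 0 yr and 61.3 RPM at 1 yr, a far larger difference between broods, with no test.

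Of 4 irx genes listed at 53 mGy/h, irx1b alone was called, and none of 3 at 1 yr, against 43.6% and 42.4% of all genes, too few genes for a comparison with the other families. The level of irx1b changed at 53 mGy/h, falling from 1.59 to 0.58 RPM (deposited FDR 0.0333), and it stood at 1.66 RPM at 8.7 mGy/h and at 2.85 and 3.10 RPM at 1 yr. The gene irx7, which acts with irx1b at the zebrafish midbrain and hindbrain boundary, was at 22.2, 18.1 and 17.8 RPM at 0 yr and at 15.3 RPM in both 1 yr groups, with no call. Levels of irx3a were 2.25, 2.81 and 1.27 RPM at 0 yr and 8.61 and 6.79 RPM at 1 yr, and irx4b was at 0.84 to 1.17 RPM at 0 yr. The 1 yr level of irx3a lay above all 3 of its 0 yr levels.

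Of the other TALE homeobox genes, partners of Hox proteins among them, 10 of 17 were listed at 53 mGy/h, and 2 rose and 1 fell, with a median log2 difference of 0.46, so the list held a smaller share of calls than the 43.6% over all genes. The rises were those of pknox1.1, from 13.8 to 30.1 RPM (deposited FDR 2.13e-07), and pbx3b, from 0.47 to 1.33 RPM (deposited FDR 0.0327), and the Nodal-pathway repressor gene tgif1 fell from 143 to 87.3 RPM (deposited FDR 0.000497). None of 8 was called at 8.7 mGy/h, 0 yr, and 3 of 7 rose at 1 yr, pknox1.1 again among them (16.4 to 22.6 RPM), a share near the 42.4% called over all genes. Several Fox proteins recruit Groucho corepressors, and of 6 gene symbols of the Groucho family 3 were listed. Of these, tle3a (57.4 to 146 RPM, deposited FDR 2.18e-12) and aes (2.58 to 7.02 RPM, deposited FDR 3.02e-06) rose at 53 mGy/h, as 22.1% of all genes did. At 1 yr tle3a (54.0 to 28.4 RPM, deposited FDR 4.79e-13) and tle3b (35.4 to 26.3 RPM, deposited FDR 0.00156) fell, as 22.4% of all genes did. With 3 genes listed, the Groucho list is too small for a comparison with these shares.

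Between the 53 mGy/h, 0 yr and the 8.7 mGy/h, 1 yr comparisons, which share no libraries, 15 of the genes were called in both and 13 of these had opposite directions. Over all genes called in both, 97.6% had opposite directions (3068 of 3144), so opposite directions are the rule in these tables as a whole. Of the 13, 6 rose at 53 mGy/h and fell at 1 yr (foxj2, foxj3, foxm1, foxn2b, foxp1a and foxp1b), and 7 fell at 53 mGy/h and rose at 1 yr (foxa3, foxd3, foxd5, foxp2, gata2a, gata6 and klf3). The exceptions were foxi1, which rose in both, as 21 of the 3144 genes did, and klf2a, which fell in both, as 55 of them did. The difference between these comparisons was not tested, and they differ in dose rate, brood and control at once.

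**Figure D3:**
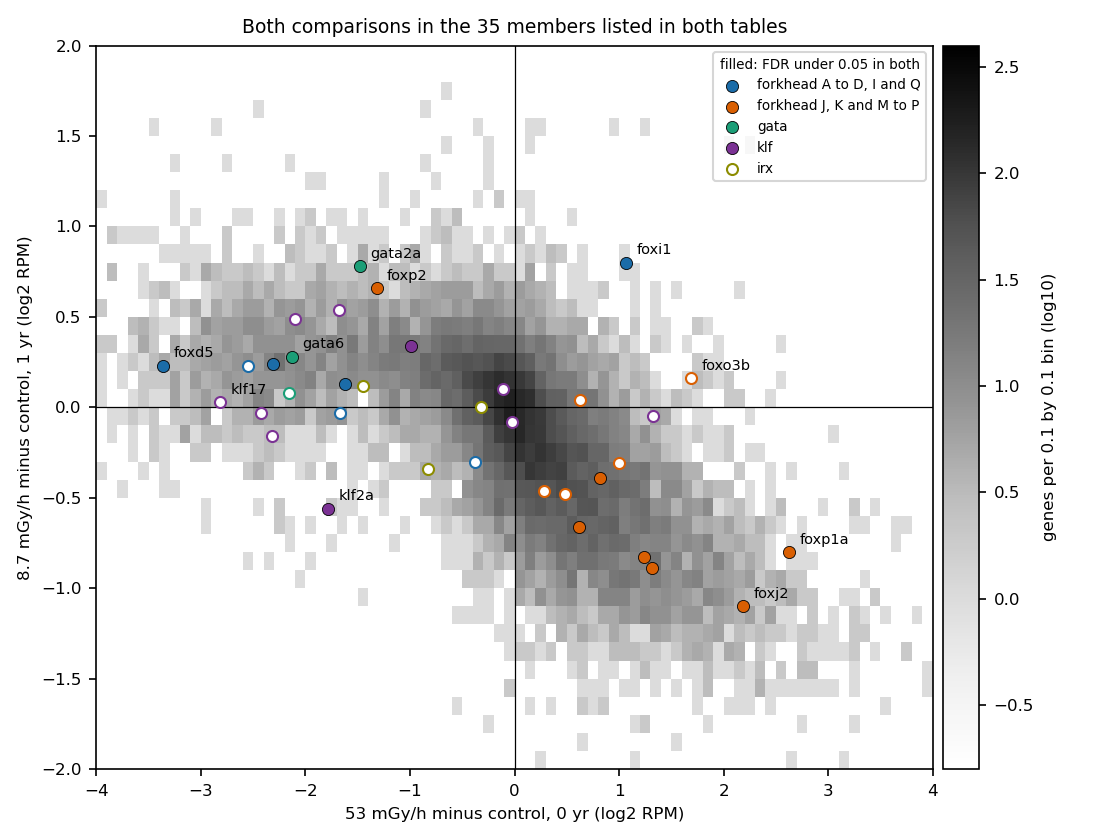
Log2 difference at 53 mGy/h, 0 yr (horizontal axis) against that at 8.7 mGy/h, 1 yr (vertical axis) for the 35 members listed in both tables, over a grey grid of gene counts per bin for all genes in both tables. Filled members passed an FDR of 0.05 in both; foxi1 lies at the upper right and klf2a at the lower left, and the other 13 filled members lie in the quadrants of opposite direction.

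Duplicate genes of the teleost genome could be compared in 6 pairs at 0 yr and 4 at 1 yr. Both genes were called in the same direction in 3 pairs at 53 mGy/h (foxb1, foxp1 and klf2) and a single gene in the other 3. In the foxo3 pair foxo3b rose (1.69) and foxo3a was not called (0.28), in the klf6 pair klf6a rose (1.32) and klf6b was not called (-0.08), and in the klf11 pair klf11b fell (-2.32) and klf11a was not called (-0.80), all as log2 differences. At 1 yr both genes moved together in the foxp1 (-0.80 and -0.89) and klf5 (0.54 and 0.67) pairs, and foxo3a (-0.46) and klf2a (-0.56) were called without their duplicates (0.16 and -0.03). No pair had calls in opposite directions, and the difference within a pair was not tested. Of single genes, 68.2% of the members and 43.6% of all genes were called at 53 mGy/h, and 56.8% and 42.4% at 1 yr. Pairs over all genes were not counted, so a tendency of duplicates to move together is not shown. Reads that match both genes of a pair could be split between them, as the counting is not given in the sources used here.

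**Figure D4:**
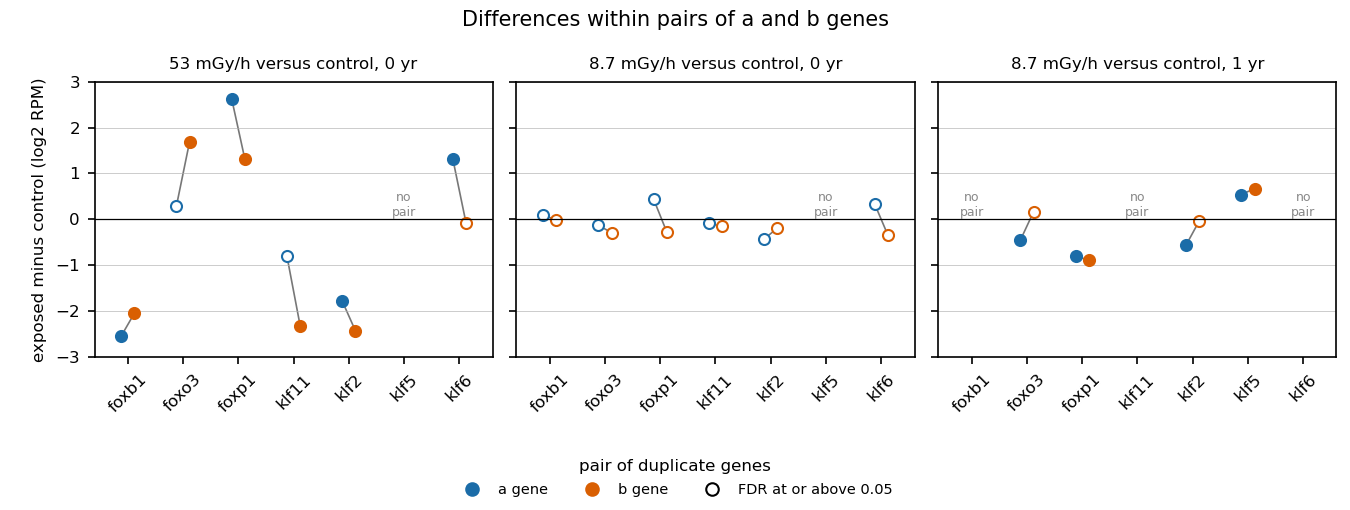
Log2 difference (vertical axis) of the a gene (blue) and the b gene (orange) of each duplicate pair in the 3 comparisons, open where the FDR was 0.05 or above; "no pair" marks pairs of which at most 1 gene was listed. At 53 mGy/h the foxb1 and klf2 pairs fell and the foxp1 pair rose together, and foxo3, klf6 and klf11 had 1 called gene each.

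Levels also differed between broods without exposure. Set across tables and with no test, the 1 yr control was at least 2-fold above the 0 yr control in 7 of 35 genes and below it in klf2a. The 7 were irx3a (log2 difference 1.93), klf5a (1.74), gata6 (1.39), foxa2 (1.23), foxd5 (1.08), foxp1a (1.02) and klf18 (1.00). Over all 12154 genes in these tables the median brood difference was -0.20, and 366 genes were 2-fold higher and 652 lower. For foxp1a this brood difference is larger in size than that of exposure at 1 yr (-0.80), and for gata6 and foxd5 it is several times that of exposure (0.28 and 0.23). Brood, parental age and handling in a given year cannot be told apart.

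Offspring of both dose rates at 0 yr could be set side by side in 42 genes. The 53 mGy/h group was at least 2-fold below the 8.7 mGy/h group in 19 and above it in 10, where 1676 of all 13197 genes were below and 1943 above by that much. The median log2 difference was -0.24, against 0.15 over all genes, and the members ran from -3.65 in foxd5 to 2.19 in foxp1a. In gata6 the difference between dose rates (-2.54) exceeded that between 53 mGy/h and control (-2.13), as its level at 8.7 mGy/h was above the control, and in klf2a it was smaller (-1.35 against -1.78). The tables hold no test of 53 against 8.7 mGy/h.

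The genes lie on 23 chromosomes and, as annotated in GRCz10, differ in span by clade. Clade I fox genes span 1.15 to 3.70 kb (median 1.98 kb) and clade II fox genes 9.90 to 293 kb (median 40.2 kb). The median span at 53 mGy/h was 34.3 kb for the 13 members that rose and 3.70 kb for the 17 that fell, and over all genes it was 24.1 kb for rises and 11.4 kb for falls. At 1 yr it was 8.94 kb for the 12 members that rose and 31.7 kb for the 9 that fell, and over all genes 13.4 and 27.0 kb. Among the exceptions at 53 mGy/h were foxp2 (201 kb) and klf3 (335 kb), long genes that fell, and foxi1 (1.77 kb) and klf9 (2.94 kb), short genes that rose. A link of span to direction among the members was not tested. Neighbouring members formed 4 pairs, 17.7 to 376.4 kb apart. In 1 of them both genes were called at 53 mGy/h, where 43.6% of all genes were called. These were foxb1a and klf13, 376.4 kb apart on chromosome 25, and both fell. On chromosome 21 klf8 and klf18 lie 17.7 kb apart, and on chromosome 1 klf12a and klf5a lie 36.8 kb apart. None of these 4 genes was called at 53 mGy/h, and klf8 and klf5a were called at 1 yr. On chromosome 19 irx1b, which fell at 53 mGy/h, and irx4b, which was not called, lie 125.4 kb apart. With 4 pairs, no comparison with the share over all genes can be made.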

How the data were processed

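The authors deposited 3 tables, each of 1 comparison, with 1 value per group and gene, and nothing per library. Per the file headers, the deposited values are log2 RPM and RPM of each group, an FDR (adjusted p-value), an absolute fold ratio and a signed fold score. Per the labels' protocols, 1.5 µg of total RNA per pool gave poly(A), non-directional, paired-end libraries. The submitters' processing notes name GRCz10 as the build and list, without roles, DESeq2, STAR 2.5.2b, FastQC 0.11.5 and Trim Galore 0.4.2; read counting is not given in the sources used here.

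From these tables, log2 differences, counts and medians were computed (Python 3.11.15, pandas 2.3.3, numpy 2.4.6, matplotlib 3.10.9). The only test is the authors' FDR over the whole table, called under 0.05. Both 0 yr tables hold the same control values, so no overlap or correlation between them is given; levels set across tables have no test. The group log2 RPM was taken as the mean of log2 RPM over the libraries, so the group RPM is a geometric mean. The product of the read counts over the libraries is then a whole number. This gave the depths as the least geometric mean per group (150 low values per group, tolerance 0.04, checked on simulated data). Intervals per gene cannot be had.

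The members and gene lists were chosen with earlier results of these data known. Genes were named by size of difference among called ones (at most 15 fox and 8 per other family, at least 1 RPM), with genes called in opposite directions and the 2 highest uncalled per family, and at most 4 per list. Beyond that rule foxc1a, foxk1, foxk2, foxo3a, klf5b, klf8, klf7b, klf11a, klf12a and irx4b were named after their values were seen. So were the list genes akt2, akt3b, ptena, pdpk1a, pdpk1b and sirt1. The alternatives tried were a stricter FDR, minimum RPM levels, pseudocounts, centring and symbol matching without regard to case. No sequences were given for these genes.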

Additional observations from a re-analysis of the deposited data

How the results depend on the processing

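Counts of called genes depended most on the level demanded. With a mean of at least 10 RPM, 17 of 21 remaining genes were called at 53 mGy/h, 0 yr (30 without that minimum; 45.4% of all genes at that level) and 13 of 19 at 8.7 mGy/h, 1 yr (21 without it; 53.0% of all genes at that level), since fewer genes enter. The median log2 difference at 53 mGy/h, -0.22 as deposited, was -0.32 with a mean of at least 1 RPM, -0.33 after subtraction of the table median and -0.11 with symbols matched without regard to case. On the log2(RPM + 1) scale, 0 genes reached 2-fold at 1 yr, against foxj2 as deposited. An FDR of 0.01 gave 26 calls of 44 at 53 mGy/h (35.1% of all genes) and 15 of 37 at 1 yr (30.8% of all genes). Of 51 calls of single genes, 10 were lost at 0.01: foxi1, foxk2, foxp4 and irx1b at 53 mGy/h, and foxa3, foxj2, foxm1, foxp1b, klf3 and klf8 at 1 yr. Adding 1 to both levels cannot reverse a direction, so log2(RPM + 1) could not change that of any of the 51. Centring shifts differences by only the table median, 0.12 at 53 mGy/h and -0.09 at 1 yr, and reversed none of the 51. At 8.7 mGy/h, 0 yr, 0 calls were made as deposited. A stricter FDR, a minimum level or centring cannot add calls to these, and matching without regard to case gave 0 as well. No paired analysis was possible because the tables hold 1 value per group, and leaving out replicates was not run for the same reason. Depth limits genes under 0.5 RPM most, where a library holds few reads.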
